A study of Mus musculus with 2 samples.

Results

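Heat shock proteins and other molecular chaperones were examined in mouse AgRP neurons that lacked FoxO1. Members were all genes whose platform symbol began with Hsp (Hspg2 left out) or named a J-protein (Dnaja, Dnajb, Dnajc), a CCT chaperonin subunit (Cct and Tcp1), a BAG protein, a Pdia disulfide isomerase, calreticulin (Calr) or calnexin (Canx). The rule used names only and no measured value. It found 92 of 22296 gene symbols, with 1473 of 1235936 probe sets, and 86 of the 92 had enough bright probe sets to be evaluated.

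Chaperones bind proteins that are unfolded or still being made and help them fold, assemble or cross membranes. HSP70 proteins do this by cycles of ATP use, J-proteins bring them their clients and start the cycle, and BAG proteins and HSP110 let the nucleotide go. HSP90 acts later on clients such as kinases and steroid receptors, the CCT ring folds actin and tubulin, HSP60 with HSP10 folds proteins in mitochondria, and calnexin, calreticulin and disulfide isomerases act in the endoplasmic reticulum (ER). AgRP neurons of the hypothalamus drive feeding and release the peptides that name them, and FoxO1 is a transcription factor that insulin removes from the nucleus.

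The series held 1 exon-level array of AgRP neurons from FoxO1 KO mice and 1 of AgRP neurons from FoxO1 heterozygous KO mice, both collected by FACS and both on a mixed genetic background. The second array is the control, so neither array is wild type. The promoter behind the knockout, the age of the mice and the number of animals behind each array are not stated in the labels. With 1 array per genotype no test was possible, so every difference below is a value of these arrays with no replicate check.

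Values are on the log2 scale. A gene's difference is the median, over its probe sets, of KO minus heterozygous KO, and its level on an array is the median of those probe sets there, so levels and difference need not match exactly. Only probe sets with a mean over both arrays of at least 5.86 were used, and a gene needed at least 3 of them. The SD given with a difference is over probe sets and says nothing of the spread between mice. The call rule asked for a difference of 1 or more in size (2-fold), with 75% or more of a gene's probe sets sharing the sign. Levels of different genes are not compared, since probes differ in brightness.

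The targeted gene Foxo1 was lower on the KO array in all 8 of its used probe sets, with a difference of -0.48 (SD 0.53) that did not pass the 2-fold rule. Agrp and Npy, which define the sorted cells, differed by 0.27 and 0.14, although the level of Npy was 12.2 in KO cells and 12.3 in heterozygous KO cells. A wider list of 12 AgRP neuron identity genes, Agrp and Npy among them, had 8 above 0 and 4 below. It ran from Ghsr at -0.60 to Mc3r at 0.52. The 9 mature oligodendrocyte markers evaluated were all lower on the KO array, with a mean level of 7.32 in KO cells, against 8.77 in heterozygous KO cells, and 6 of them passed the rule. The 6 oligodendrocyte precursor markers were all lower too (mean level 7.11 on the KO array, 8.02 on the heterozygous array), and 2 passed. Sox10 was the least so, at -0.09 with 5 of 9 probe sets lower. Of all evaluated genes, 65.2% were below 0 and 1.12% passed the rule on the lower side. The part of oligodendrocyte cells in the chaperone values was not tested.

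Most chaperone genes differed little between the arrays. The members had a median difference of -0.05 (SD over members 0.47, or 0.39 without Hsp25-ps1), against -0.11 over all 16639 evaluated genes (SD 0.40). The median over members ran from -0.06 to 0.06 over the alternative settings. Of the 86 members, 61 lay within 0.3 of 0, or 70.9%, where 64.3% of all evaluated genes did. At least 2-fold higher were 2 members, Dnajc15 and Hsp25-ps1, or 2.33%, where the background was 1.13% of all evaluated genes. At least 2-fold lower was 1 member, Dnajc19, or 1.16%, where the background was 1.12%. With the 2-fold rule and the main settings, the counts of called members were therefore near those of genes in general. With a 1.5-fold rule in place of 2-fold, 6 members were called higher, or 6.98%, where the background was 3.28%, and 8 were called lower, or 9.3%, where it was 4.9%. Those added to the higher side were Dnajc24, Hspb8, Hspb11 and Hspe1. On the lower side Cct7, Dnajc4, Hspa1a and Hspa9 joined, as did Dnajc16, Dnajc22 and Hspa13, 3 genes named after their values were seen.

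Small differences went in both directions. Below 0 were 49 members, or 57%, where 65.2% of all evaluated genes were. Above 0 were 37 members, or 43%, where the background was 34.8%. The gap in the share below 0 varied with the settings. With the trend of differences on signal level removed, 54.7% of members and 57% of all genes were below 0. The shares were 61.6% and 64.8% with quantile normalisation repeated, and 52.9% and 64.9% with the floor passed on either array. With all differences centred on the median of the evaluated genes, which adds 0.11 to every gene, 35 members or 40.7% of members lay below 0 where 50% of all genes did. That scaling brought the called members to 5 of 86 higher and 0 lower. Of all 16639 genes, 270 were then called higher and 127 lower, against 188 and 186 without it. A larger share of members than of all genes was thus called higher under that scaling, though on 5 genes. Single probe sets of the members were at least 2-fold higher in 8.16% of cases and at least 2-fold lower in 6.73%, where the background was 9.24% and 11% of the probe sets with 1 gene symbol.

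**Figure D1:**
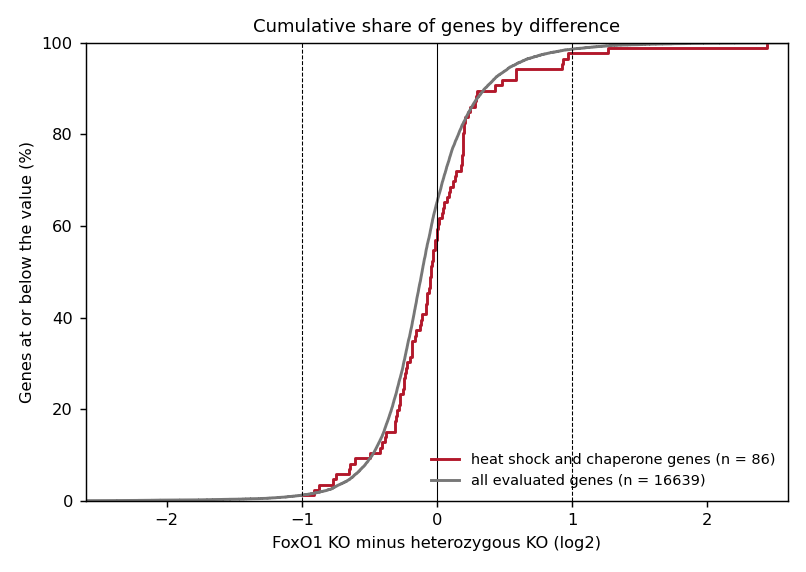
Cumulative share of genes (vertical axis, %) by difference of FoxO1 KO minus heterozygous KO (horizontal axis, log2), for the 86 chaperone genes (red) and all 16639 evaluated genes (grey), with dashed lines at 2-fold. The curves lie close together, and the members' curve is shifted to the right near 0, where 57% of members and 65.2% of all genes are below 0. The size of this shift varied with the settings, and the shares were 54.7% and 57% with the trend on level removed.

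HSP90 came first by role, and its 3 genes differed by little. Hsp90aa1, the stress-inducible cytosolic form, stood at 11.7 in KO cells and 11.5 in heterozygous KO cells, which gave 0.14 (SD 0.27, 34 of 48 probe sets higher). Hsp90ab1, the constitutive cytosolic form, stood at 12.0 in KO cells and 12.1 in heterozygous KO cells, a difference of -0.23 (SD 0.24, 15 of 18 probe sets lower). The cytosolic pair thus lay on opposite sides of 0, each by less than its SD. Hsp90b1, the ER form also known as Grp94, differed by 0.19 (SD 0.30, 16 of 22 higher).

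Of the 12 HSP70 and HSP110 genes, 7 were below 0 and 5 above, with a median of -0.17, and none was called. Hspa8, the constitutive cytosolic HSP70, was the most even of them, at 12.7 in KO cells and 12.6 in heterozygous KO cells. Its difference was 0.01 (SD 0.15), with 17 of 34 probe sets higher and 17 lower. Hsph1, an HSP110 that acts as nucleotide exchange factor, differed by 0.04 (SD 0.40 over 28 probe sets). Its relatives Hspa4 and Hspa4l differed by -0.24 (SD 1.08, 19 of 26 lower) and 0.20 (SD 0.66, 32 of 51 higher).

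Hspa1a, the classical heat-inducible HSP70, was the lowest of this group, at -0.87 (SD 0.35). Its used probe sets stood at 11.1, 8.81 and 7.09 in KO cells, against 12.0, 9.09 and 7.96 in heterozygous KO cells. All 3 were lower on the KO array, and so was the fourth probe set under the floor, at 3.74 in KO cells, against 4.51 in heterozygous KO cells. Hspa1a has a near-identical neighbour, Hspa1b, which is not analysed here, so the value may hold both genes. Hspa9, the mitochondrial HSP70 known as mortalin, differed by -0.65 (SD 0.59, 17 of 19 probe sets lower), with levels of 9.69 in KO cells and 10.4 in heterozygous KO cells. Hspa2, best known from testis, differed by -0.11 (SD 0.28, 4 of 6 lower).

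**Figure D2:**
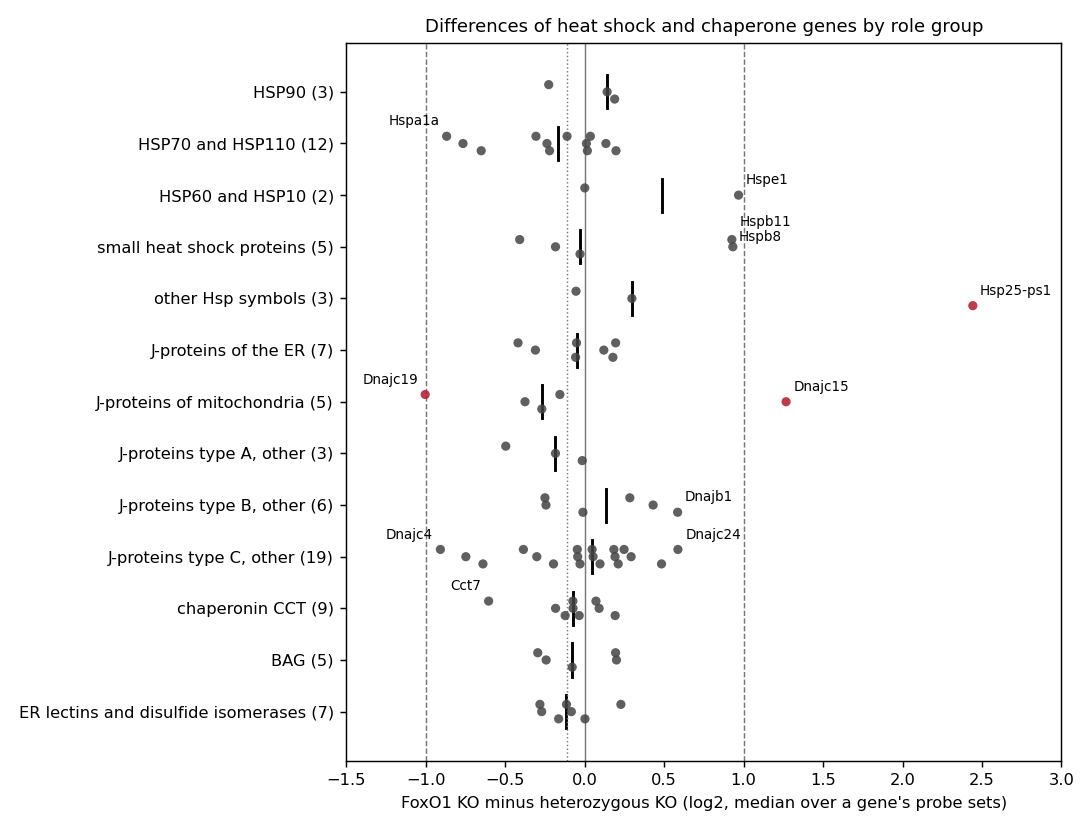
Difference of FoxO1 KO minus heterozygous KO (horizontal axis, log2) for the 86 evaluated members by role group, with the number of genes in brackets, 1 point per gene, red where called, and a black bar at each group's median. Dashed lines mark 2-fold and the dotted line the median of all genes, and most points lie between -0.3 and 0.3, with Hsp25-ps1 and Dnajc15 to the right and Dnajc19 on the left line.

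Small heat shock proteins, which hold unfolded clients without using ATP, split into genes near or below 0 and a pair close to 1. Of 5 evaluated genes, 2 were above 0 and 3 below, with a median of -0.03. The sign and size of that median turned with the settings, to 1.03 with a floor at the 75th percentile, 0.64 with the mean over probe sets and 0.72 with the floor passed on either array. Hspb8, which works with Bag3 in selective autophagy, was at 0.93 (SD 0.69). Its 4 probe sets stood at 8.70, 8.94, 6.38 and 10.8 in KO cells, against 7.53, 7.78, 6.69 and 10.1 in heterozygous KO cells, so that 3 were higher and 1 lower. Hspb11 was at 0.93 too (SD 1.09, 7 of 8 higher), though its product is known as a part of the intraflagellar transport machinery of cilia rather than as a chaperone. Hspb6 was lowest, at -0.41 (SD 0.64, 3 of 5 lower).

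Hspb1, the gene of mouse Hsp25, had probe sets of 2 kinds. Of 9 used probe sets, 5 lay between -0.29 and -0.03, while 4 lay between 1.06 and 2.85. The largest stood at 10.2 in KO cells and 7.39 in heterozygous KO cells. The median of the 9 was -0.03, although the gene's levels were 8.23 in KO cells and 7.11 in heterozygous KO cells. With the floor at the 75th percentile the difference was 1.19. The pseudogene Hsp25-ps1 carries the older name of the same protein, and it had the largest difference of the members, at 2.44 (SD 1.46). Its 3 probe sets stood at 8.90, 10.4 and 7.26 in KO cells, against 5.56, 7.99 and 6.78 in heterozygous KO cells, all 3 higher. The 5.56 lies under the floor of 5.86, so that probe set was used only through its KO value. With the floor passed on both arrays Hsp25-ps1 was not evaluated. Whether the probes of Hsp25-ps1 also catch Hspb1 transcripts was not tested, since probe sequences are not used here. Hspbp1, a nucleotide exchange factor of HSP70, differed by -0.06 (SD 0.20, 3 of 4 lower).

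**Figure D3:**
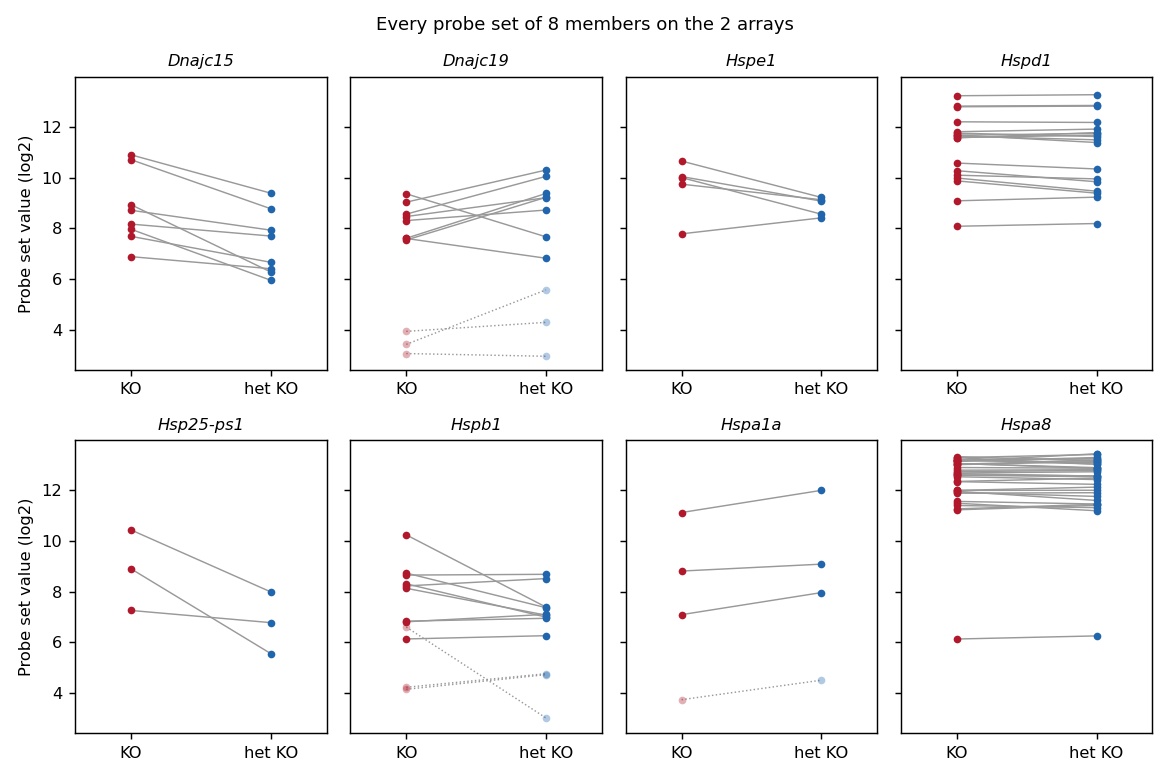
Every probe set of 8 members, as its value (vertical axis, log2) on the FoxO1 KO array (red, left) and the heterozygous KO array (blue, right), joined by a line that is dotted where the probe set is under the floor. All 8 lines of Dnajc15 and all 3 of Hsp25-ps1 are higher on the KO side, those of Hspa8 and Hspd1 are nearly level, and those of Hspb1 and Dnajc19 run in both directions.

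J-proteins outside the ER and mitochondrial groups had differences on both sides of 0. In type A, Dnaja1 and Dnaja2, the main partners of Hspa8, differed by -0.02 (SD 0.27, 15 of 29 probe sets lower) and -0.18 (SD 0.41, 10 of 13 lower), and Dnaja4 was lowest at -0.50 (SD 0.51, 8 of 10 lower). In type B, the median was 0.14 over 6 evaluated genes, with 3 above 0 and 3 below. It was -0.09 with no floor and -0.10 with genes of at least 1 probe set.

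Dnajb1, the main heat-inducible J-protein, was the highest of type B at 0.58 (SD 0.49). Its 5 used probe sets stood at 13.1, 11.6, 10.8, 8.34 and 7.71 in KO cells, against 13.1, 11.6, 9.55, 7.71 and 7.13 in heterozygous KO cells. The dimmer 3 of these probe sets were higher on the KO array by 0.58 or more, and the brighter ones differed by less than 0.1. Hspa1a and Dnajb1, both heat-inducible, thus stood on opposite sides of 0. Dnajb6, which keeps polyglutamine proteins from aggregating, differed by 0.28 (SD 0.67, 22 of 31 higher). Dnajb2, a neuronal J-protein that binds ubiquitin, differed by -0.25 (SD 1.47, 7 of 12 lower), Dnajb5 by -0.24 (SD 0.59) and Dnajb4 by -0.01 (SD 0.64).

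The 19 type C J-proteins not placed in the ER or mitochondrial group had a median of 0.05, with 10 above 0 and 9 below. They still hold genes known or thought to act in the ER (Dnajc14, Dnajc16, Dnajc18 and Dnajc25, at -0.05, -0.75, -0.39 and 0.48) or in mitochondria (Dnajc28, at 0.18). Dnajc5, the cysteine string protein of synaptic vesicles, differed by -0.04 (SD 0.61, 11 of 19 lower), and Dnajc6, the auxilin that helps to strip clathrin from vesicles, by 0.05 (SD 0.61, 15 of 25 higher). Dnajc7, a co-chaperone between HSP70 and HSP90, differed by 0.10 (SD 0.41), Dnajc12 by 0.29 (SD 0.37, 6 of 6 higher), Dnajc13, an endosomal J-protein, by 0.19 (SD 0.92, 32 of 52 higher) and Dnajc8, a protein tied to pre-mRNA splicing, by 0.21 (SD 0.99). Dnajc12, Dnajc13 and the genes listed with the ER and mitochondria here were named after their values were seen.

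At the ends of type C stood Dnajc24, a factor of diphthamide synthesis, at 0.59 (SD 0.68, 8 of 10 higher), and Dnajc4 at -0.91 (SD 0.43). All 8 used probe sets of Dnajc4 were lower on the KO array, with differences from -1.55 to -0.33 and levels of 7.93 in KO cells and 8.72 in heterozygous KO cells. Dnajc16, named after its value was seen, was lower in 15 of 16 probe sets, with a difference of -0.75 (SD 0.62) and levels of 7.23 in KO cells and 8.30 in heterozygous KO cells. Both genes were below 0 by more than the SD over their probe sets. A difference larger than that SD, in either direction, was found for 13 of 86 members, or 15.1%, where the background was 10.3% of all evaluated genes.

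The 5 BAG genes had a median of -0.08, which was 0.18 with no floor and 0.14 with the mean over probe sets. Bag1, which couples HSP70 to the proteasome, was lowest at -0.30 (SD 0.43, 10 of 13 lower), with levels of 10.1 in KO cells and 10.2 in heterozygous KO cells. Bag3, the stress-inducible partner of Hspb8, was highest at 0.20 (SD 0.62, 8 of 12 higher). Bag2, an inhibitor of the ubiquitin ligase CHIP, differed by -0.08 (SD 0.35, 3 of 5 lower).

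The chaperonin CCT is a ring of related subunits. Its 9 genes had a median of -0.07 (0.04 with differences centred on all evaluated genes), with 6 below 0 and 3 above, and 8 of them lay between -0.18 and 0.19. The exception was Cct7, the eta subunit, at -0.61 (SD 0.49), with levels of 9.23 in KO cells and 9.68 in heterozygous KO cells. Of its 17 probe sets, 15 were lower. Cct8, the theta subunit, was lower in 17 of 19 probe sets with a difference of -0.18 (SD 0.32), and Cct4 differed by -0.12 (SD 0.36). Tcp1, the alpha subunit, differed by 0.07 (SD 0.35, 19 of 31 higher), and Cct2, Cct3, Cct5 and Cct6a by 0.19, 0.09, -0.03 and -0.07. The probe sets of these last genes spread widely, with SDs of 0.71, 0.84, 0.50 and 1.02.

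Mitochondrial chaperones held a called member in each direction. Dnajc15, a J-protein of the inner membrane that is known to restrain complex I, was at 1.27 (SD 0.80), a 2.41-fold difference. Its probe sets stood at 10.9, 10.7, 8.93, 8.71, 8.17, 7.96, 7.68 and 6.88 in KO cells, against 9.39, 8.77, 6.28, 7.93, 7.70, 5.95, 6.66 and 6.41 in heterozygous KO cells. All 8 were higher on the KO array, by 0.47 to 2.65. The rule called Dnajc15 under every one of the 13 alternatives that kept the 2-fold size, with differences from 1.27 to 1.51.

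Dnajc19, a paralog of Dnajc15 and a part of the motor that pulls proteins through the inner membrane, ran the other way at -1.004 (SD 1.25). Its 8 used probe sets stood at 9.36, 9.03, 8.56, 8.47, 8.31, 7.61, 7.60 and 7.54 in KO cells, against 7.66, 10.3, 10.1, 9.21, 8.72, 9.38, 6.82 and 9.22 in heterozygous KO cells. Of these, 6 were lower, and 2 were higher by 0.78 and 1.70. It met both limits of the rule only just, and 7 of the 13 alternatives called it, with differences from -1.27 to -0.61. The other 3 mitochondrial J-proteins were below 0. They were Dnaja3, the partner of mortalin, at -0.38 (SD 0.46, 9 of 11 lower), and Dnajc30 and Dnajc11 at -0.27 and -0.16.

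The folding chamber of mitochondria is built from HSP60, encoded by Hspd1, and its lid HSP10, encoded by Hspe1. Hspd1 stood at 11.6 on both arrays and differed by 0.00 (SD 0.22), with 9 of 18 probe sets higher. Hspe1 was at 0.97 (SD 0.85), just short of the call, with 4 of 5 probe sets higher. Its probe sets stood at 10.7, 10.04, 10.001, 9.74 and 7.78 in KO cells, against 9.22, 9.07, 8.56, 9.13 and 8.41 in heterozygous KO cells. Hspe1 was between 0.77 and 1.08 under the 13 alternatives and was called in 3 of them. RefSeq lists several pseudogenes of Hspe1 and of Hspd1, and a pseudogene each of Hspa9 and Cct3, that are not analysed here. Near-identical copies can share probes.

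This pair of genes is of interest because it is arranged head to head and shares a promoter. In RefSeq (GRCm38.p6) Hspe1 starts on the plus strand at base 55088148 of chromosome 1, and 1 of the 2 listed starts of Hspd1 lies 216 bases before it, on the minus strand. The stretch between and around these starts holds a heat shock element, the site bound by heat shock factors. It was searched as GAANNTTCNNGAA on both strands. The 250 bases before the Hspe1 start are shown, plus strand, chr1:55087898-55088147, with the element in capitals. It spans bases -89 to -72, counted from 0 at the start, and holds overlapping matches on both strands.
Hspe1 promoter: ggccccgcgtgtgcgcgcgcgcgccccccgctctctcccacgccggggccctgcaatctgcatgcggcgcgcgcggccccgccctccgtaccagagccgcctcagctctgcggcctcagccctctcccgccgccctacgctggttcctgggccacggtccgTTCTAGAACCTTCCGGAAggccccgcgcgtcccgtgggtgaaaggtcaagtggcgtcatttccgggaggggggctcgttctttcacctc

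The same search over RefSeq promoter windows, from 250 bases before to 50 after a start, matched 4 of 76 member genes with a window, or 5.26%, and 0.662% of all 27025 genes with one. The 4 were Hspd1, Hspe1, Dnajb6 and Hsph1, with differences of 0.00, 0.97, 0.28 and 0.04. Hspd1 and Hspe1 share the element shown above, which is counted for each of them, and the match of Hsph1 lies after its listed starts. The windows of 16 members, among them Hspa8, Hsp90aa1 and Hsp90ab1, were not in the table. A FoxO site, searched as GTAAACA on both strands, matched 3 member genes, or 3.95%, where 4.05% of all genes had it. They were Dnajb12, Dnajc10 and Dnajc6, with differences of -0.42, -0.06 and 0.05. A match is a description of letters and not evidence of binding, and no match says only that these letters are absent from the window.

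Among ER lectins and disulfide isomerases none was called. The 7 genes had a median of -0.12, with 5 below 0 and 2 above, and ran from Pdia6 at -0.28 (SD 0.66, 10 of 17 lower) to Pdia2 at 0.23 (SD 0.93, 4 of 6 higher). Calr stood at 10.5 in KO cells and 10.9 in heterozygous KO cells, a difference of -0.08 (SD 0.29, 9 of 15 lower). Canx stood at 10.9 on both and differed by 0.00 (SD 1.05), with 15 of 30 probe sets higher. Pdia3, which works with both lectins on glycoproteins, differed by -0.12 (SD 0.24, 11 of 16 lower), and Pdia4 by -0.27 (SD 0.71, 9 of 13 lower).

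Hspa5, the ER HSP70 known as BiP and a usual readout of ER stress, differed by 0.02 (SD 0.50), with 7 of 13 probe sets higher and levels of 11.2 in KO cells and 11.5 in heterozygous KO cells. Hspa13, another HSP70 of the ER, differed by -0.77 (SD 1.01, 6 of 8 lower), with levels of 8.84 in KO cells and 9.96 in heterozygous KO cells, and by -0.23 with no floor. The 7 J-proteins grouped with the ER hold both partners of BiP in the lumen and the membrane proteins Dnajb12 and Dnajb14, whose J-domains face the cytosol. Of the 7, 4 were below 0 and 3 above, with a median of -0.05 that lay between -0.06 and 0.06 over the alternative settings. Dnajb12 was lowest at -0.42 (SD 0.37, 9 of 11 lower), and Dnajb9, induced by ER stress, was highest at 0.19 (SD 0.27, 5 of 7 higher). Dnajc3, also known as P58IPK, differed by -0.31 (SD 0.52, 10 of 14 lower), Dnajc10 by -0.06 (SD 0.82) and Dnajb11 by -0.05 (SD 0.74, 7 of 14 lower).

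Some of the ER genes carry the ER stress response element, a site through which ATF6 acts. Searched as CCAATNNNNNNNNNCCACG on both strands, it matched 6 of the 76 member genes, or 7.89%, and 0.137% of all genes with a window. The matches are shown with 5 bases on each side, in the direction of the gene, with the element in capitals. These 6 genes are among those a common ER stress signal would be looked for in, and Dnajb9, without a match, is another. Where the capitals read CGTGG first, the element lies on the other strand.
Hspa5, chr2:34772020-34772048, plus strand: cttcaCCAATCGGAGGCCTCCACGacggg
Hsp90b1, chr10:86705633-86705661, minus strand: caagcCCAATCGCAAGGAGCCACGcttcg
Hsp90b1, chr10:86705528-86705556, minus strand: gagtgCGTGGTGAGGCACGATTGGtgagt
Calr, chr8:84847070-84847098, minus strand: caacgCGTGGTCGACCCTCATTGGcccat
Canx, chr11:50325795-50325823, minus strand: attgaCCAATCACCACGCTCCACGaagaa
Pdia6, chr12:17266486-17266514, plus strand: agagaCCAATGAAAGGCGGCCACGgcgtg
Dnajc3, chr14:118937822-118937850, plus strand: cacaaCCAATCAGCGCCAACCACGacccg

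The genes with this element ran from -0.31 in Dnajc3 to 0.19 in Hsp90b1, with 3 above 0 and 3 below and a median of -0.04. Beside them, 24 evaluated genes of the unfolded protein response outside the members had a median of -0.08, with 17 below 0 and 7 above. The 1 called was Hyou1, an ER relative of HSP110, at -1.15 (SD 0.99, 28 of 33 probe sets lower). Atf4, Ddit3 and Xbp1, transcription factors of that response, differed by -0.02, -0.03 and 0.23, and were named after their values were seen.

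Regulators and partners outside the members were compared next, over lists drawn up for this purpose. The 5 evaluated heat shock factor genes, with the regulator Hsbp1, had a median of 0.05 and ran from Hsf4 at -0.27 (SD 0.56, 9 of 14 lower) to Hsf2 at 0.18 (SD 0.44, 12 of 16 higher). Hsf1, the main factor of the heat shock response, differed by 0.11 (SD 0.51). The 23 other co-chaperones had a median of -0.12, with 15 below 0 and 8 above and none called. They ran from Nudc, which binds HSP90, at -0.48 (SD 0.30, 5 of 6 lower) to Grpel1, a nucleotide exchange factor of mortalin, at 0.80 (SD 0.69, 6 of 7 higher). Grpel1 and Hspa9, partners in the same import motor, thus stood at 0.80 and -0.65. The related Grpel2, named after its value was seen, lay on the side of Hspa9, at -0.21 (SD 0.87, 9 of 11 lower).

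Prefoldin and the tubulin cofactors, which hand over or take up clients of CCT, were listed with 3 phosducin-like genes (Pdcl, Pdcl3 and Txndc9), whose products bind CCT. The list had a median of 0.39, beside -0.07 for the CCT genes. Of 14 evaluated genes 10 were above 0, and 7 were higher on the KO array in at least 75% of their probe sets, where the background was 9.56% of all evaluated genes. Their mean level was 9.18 in KO cells and 8.83 in heterozygous KO cells. None was called, and they ran from Uxt at -0.39 (SD 0.93) to the prefoldin subunit Pfdn4 at 0.78 (SD 1.11, 3 of 4 higher). Pfdn5 and Tbca, named after their values were seen, were higher in 9 of 9 and 10 of 10 probe sets, by 0.67 (SD 0.53) and 0.61 (SD 0.48). The difference between this list and CCT was not tested, since genes are not replicates.

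Genes that respond to cell dissociation are given because heat shock genes can respond to it as well. The 19 evaluated had a median of -0.10, with 12 below 0 and 7 above. Egr3 at -1.13 (SD 0.29, 4 of 4 lower) was the 1 called, and Fos was highest at 0.48 (SD 0.57). Markers of other cells had medians of -0.19 for 5 astrocyte, -0.12 for 5 microglia and -0.11 for 3 endothelial genes, with none called. Within these lists single genes lay further apart. Astrocyte genes ran from Slc1a3 at -0.73 to Gfap at 0.66, and microglia genes from Trem2 at -0.30 to Aif1 at 0.50. Endothelial genes ran from Cdh5 at -0.77 to Pecam1 at -0.05. The part of these other cells in the chaperone values was not tested.

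**Figure D4:**
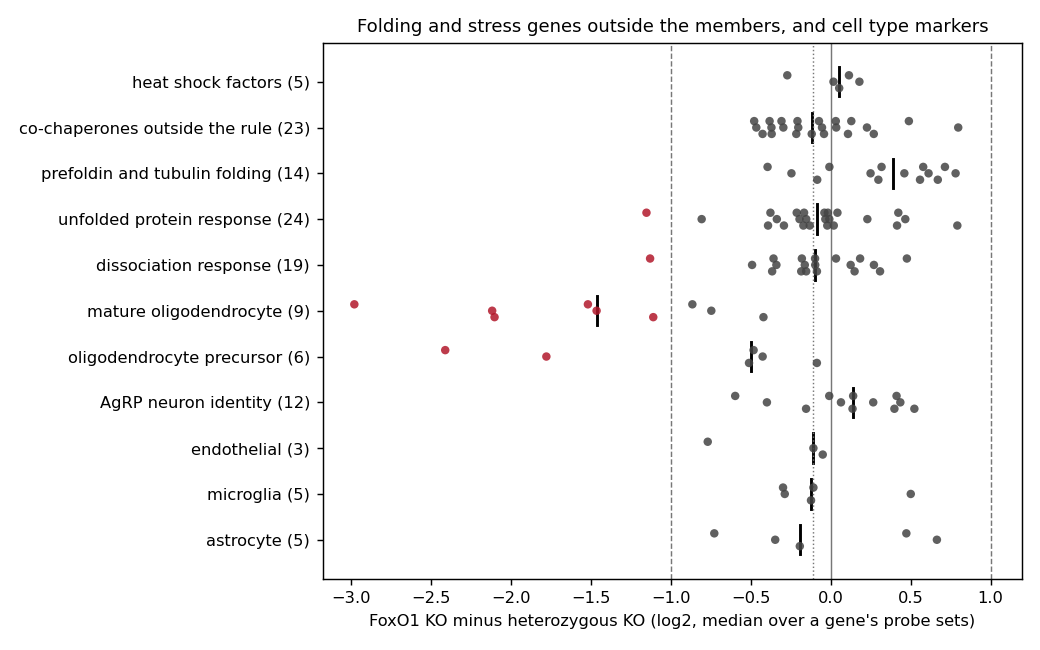
Difference of FoxO1 KO minus heterozygous KO (horizontal axis, log2) for folding and stress genes outside the members and for cell type markers, with the number of genes in brackets, 1 point per gene, red where called, and a black bar at each list's median. The median of prefoldin and tubulin folding genes lies at 0.39, those of the other folding and stress lists lie between -0.12 and 0.05, and that of mature oligodendrocyte genes lies at -1.46.

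The 6 members without enough bright probe sets are Dnajb3, Dnajb7, Dnajb8, Hspb3, Hspb7 and Hspb9, several of them known from testis or muscle. They had 1 or 2 probe sets at or above the floor. Hspb9 stood at 6.56 in KO cells and 7.07 in heterozygous KO cells over 2 probe sets, and Dnajb7 at 5.42 in KO cells and 6.82 in heterozygous KO cells over 1. Hspb3 and Hspb7 differed by 0.22 and 0.18, and Dnajb3 and Dnajb8 by -0.66 and -0.10.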

How the data were processed

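The authors deposited 1 log2 value per probe set and array; the scale was taken from the values. RMA and Partek, with no versions, made them per the submitters' processing notes; the genome build is not stated. The platform annotation gave 1 symbol for 318760 probe sets and several for 6684. Only the first kind named genes, and all 92 members had a current symbol in RefSeq. Arrays were assigned to genotypes by the labels. The members and lists were chosen with earlier results of these data known. Named were called members, each role group's highest and lowest member, classical chaperones, members not evaluated, and of other lists the called or else the extreme genes. The floor was the median over all probe sets of the mean of both arrays. Gene summaries were checked on simulated data with known changes. Sequences are RefSeq's, GRCm38.p6, and 76 of 92 members had a promoter window. Alternatives changed the floor, the summary, the number of probe sets, the normalisation, the annotation and the rule. The number of arrays limits the precision. Computations used pandas 2.3.3 and numpy 2.4.6 under Python 3.11.15, with figures by matplotlib 3.10.9.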

Additional observations from a re-analysis of the deposited data

How the results depend on the processing

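No paired analysis was possible because there was 1 array per genotype. The count of members at least 2-fold lower was 0 with no floor, the mean over probe sets, the trend on level removed, quantile normalisation repeated, or either centring, in place of 1. It was 2 with at least 1 probe set per gene and 8 with a 1.5-fold rule. The count at least 2-fold higher was 1 with at least 5 probe sets or with the floor passed on both arrays, 3 with the mean over probe sets, the trend on level removed or the arrays centred, 5 with differences centred on all evaluated genes and 6 with the 1.5-fold rule, in place of 2. The floor on both or on either array was chosen after seeing the data. At 1.5-fold the shares were 6.98% higher and 9.3% lower, where the background was 3.28% and 4.9%. The median of BAG genes was 0.18 with no floor. The median of small heat shock proteins was 1.03 with a floor at the 75th percentile, 0.64 with the mean over probe sets and 0.72 with the floor passed on either array. The other role group medians moved by less than the SD over their members. The median over members ran from -0.06 to 0.06. Hsp25-ps1 was evaluated in 10 of 13 alternatives and called in each of them. With the floor passed on both arrays it was not evaluated, since 1 of its 3 probe sets stood at 5.56 on the heterozygous array. With a floor at the 75th percentile Hsp25-ps1 was not evaluated either, and the 2 called were Dnajc15 and Hspb8. Hspb8 and Hspb11 were each called in 2 alternatives that kept the 2-fold size.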

Other observations

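The spread between genes narrowed with the number of probe sets behind a gene, in the members and over all evaluated genes. The 21 members with at most 10 annotated probe sets had differences with an SD of 0.77, from -0.91 in Dnajc4 to 2.44 in Hsp25-ps1. The 45 with 11 to 20 had an SD of 0.36, and the 20 with at least 21 had an SD of 0.14. Over all evaluated genes the SD in these bins was 0.48, 0.38 and 0.31. The last group ran from -0.24 in Hspa4 to 0.28 in Dnajb6, with 14 above 0 and 6 below and a median of 0.06. Over all evaluated genes with at least 21 probe sets the median was -0.13, with 1484 above 0 and 3459 below. Dnajc15, Hspe1, Hspb8 and Hsp25-ps1, which were high on the KO array, all had at most 8 annotated probe sets, while Hspb11, close to 1 as well, had 13.

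Single probe sets of a few chaperone genes differed by at least 8-fold while their gene did not. There were 9 among the 1263 used probe sets of members, or 0.713%, of which 6 were higher and 3 lower, where 1.39% of all used probe sets with 1 symbol were that far apart. Of the 6 higher, all but that of Hspa4 were under the floor of 5.86 on the heterozygous KO array. Of the 3 lower, that of Dnajc2 was under it on the KO array. Such probe sets were used because their mean over both arrays passed the floor. One of Canx stood at 7.96 in KO cells and 3.97 in heterozygous KO cells, and one of Hspa4 at 10.2 in KO cells and 6.29 in heterozygous KO cells. In the J-proteins, one probe set of Dnajc8 stood at 8.31 in KO cells and 4.76 in heterozygous KO cells. One of Dnajc2 stood at 5.68 in KO cells and 8.84 in heterozygous KO cells, and one of Dnajb2 at 6.50 in KO cells and 9.65 in heterozygous KO cells. These genes were named after their values were seen, and which exons the probe sets lie in is not known here.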
